A study of Mus musculus with 15 samples.

Results

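The cone phototransduction genes are the genes whose products turn the absorption of light into an electrical signal in cones, the photoreceptors of daylight and colour vision. They were described in whole eyes of the R6/1 and R6/2 mouse models of Huntington's disease (HD) and of wild type (WT) mice. The 10 genes comprised the cone opsins Opn1sw and Opn1mw, the cone arrestin Arr3, the transducin subunits Gnat2, Gnb3 and Gngt2, the phosphodiesterase subunits Pde6c and Pde6h, and the channel subunits Cnga3 and Cngb3. They were chosen by name, for their place in the pathway. All 10 were among the 22180 genes with a probe set that carried a single gene symbol, and each was represented by 1 probe set.

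R6/1 and R6/2 mice carry a transgene of exon 1 of the mutant human huntingtin gene, with an expanded CAG repeat. The repeat counts given for the lines were 131 ± 3.1 (SD) in R6/1 and 162 ± 2.8 (SD) in R6/2. All groups were labelled as strain C57BL/6J, and the WT mice were littermates. The arrays were labelled as 4 of WT and 3 of R6/1 mice at 6 months of age, and 4 of WT and 4 of R6/2 mice at 9 weeks of age. RNA was pooled into these samples, and neither the number of mice in a pool nor their sex was used here, so the p-values cover the spread among pooled samples, which may be technical. The model and the age cannot be told apart between the cohorts, since R6/1 was measured at 6 months alone and R6/2 at 9 weeks alone.

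In a cone, light changes the shape of an opsin, which activates transducin, a G protein of an alpha, a beta and a gamma subunit. Transducin takes the inhibitory subunit off a phosphodiesterase, the enzyme then breaks down cyclic GMP, and channels that cyclic GMP holds open close. Arrestin binds the activated opsin and ends its signal. Rods, which serve dim light and far outnumber cones in the mouse retina, use the same steps with their own copies of most of these proteins. In the mouse many cones hold both opsins, with Opn1sw, the short-wave pigment, most abundant in ventral cones and Opn1mw, the medium-wave pigment, in dorsal cones.

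Values are log2 expression from robust multi-array averaging (RMA), in which the probes of a set are merged after background correction and normalization. A gene was called at p under 0.05 together with a Benjamini-Hochberg adjusted p under 0.20 over 11090 genes tested with limma in 1 model of the 4 groups. Cnga3 varied too little across the arrays to pass the variance filter, so 9 of the 10 cone genes were tested. The array medians lay between 2.78 and 2.95 and the arrays' interquartile ranges between 2.17 and 2.61. The labelled tissue held retina, lens and muscle, with mean levels of 8.28 to 9.00 for 9 rod genes, 7.95 to 8.73 for 8 lens genes and 5.31 to 7.88 for 8 skeletal muscle genes.

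An array at 6 months went against its label. The groups above follow the labels, whereas the methods give 3 WT and 4 R6/1 samples at 6 months. In the array labelled WT 6 months replicate 4, Tmem26, a membrane protein gene, stood at 4.96, against 3.01 to 3.20 in the other WT arrays and 5.12 to 5.53 in R6/1. Myh4, a fast muscle myosin gene, stood at 5.95 in it, against 8.78 to 9.05 in the other WT arrays and 6.31 to 7.40 in R6/1. Of 47 genes other than the cone genes that were called in R6/1 when this array was left out, 39 were nearer to the R6/1 mean in it than to the mean of the other WT arrays. For this reason each comparison is given with the groups as labelled and again without that array, and the array was moved to no other group. The choice to leave it out was made with these values known.

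The sequences just upstream of the genes are shown for those that differed most between HD and WT mice and had an entry in the promoter table. Windows from 250 bases before to 50 bases after the start of the transcript (RefSeq, build GRCm38.p6) were at hand for 6 of the 10 genes, namely Opn1sw, Opn1mw, Arr3, Gnat2, Pde6h and Cnga3, the last with 2 start sites. They were searched on both strands for TAATCC, the core letters bound by CRX, a homeodomain factor of photoreceptors, and for TAATCT, which differs from it in the last base and was added after the first search. Matches on opposite strands may overlap, and none did in these windows. Capitals mark a motif, on the strand shown or, in Gnat2, as the reverse complement. The windows are Opn1sw at chr6:29380464-29380763 (minus strand), Opn1mw at chrX:74127216-74127515 (plus strand), Arr3 at chrX:100605247-100605546 (plus strand) and Gnat2 at chr3:108092816-108093115 (plus strand).
Opn1sw: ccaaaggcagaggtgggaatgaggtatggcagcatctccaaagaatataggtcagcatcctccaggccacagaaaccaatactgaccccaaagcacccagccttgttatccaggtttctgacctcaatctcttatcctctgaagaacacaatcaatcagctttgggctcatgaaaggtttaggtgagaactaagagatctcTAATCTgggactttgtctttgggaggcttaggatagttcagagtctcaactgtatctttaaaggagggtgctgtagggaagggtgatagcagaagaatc
Opn1mw: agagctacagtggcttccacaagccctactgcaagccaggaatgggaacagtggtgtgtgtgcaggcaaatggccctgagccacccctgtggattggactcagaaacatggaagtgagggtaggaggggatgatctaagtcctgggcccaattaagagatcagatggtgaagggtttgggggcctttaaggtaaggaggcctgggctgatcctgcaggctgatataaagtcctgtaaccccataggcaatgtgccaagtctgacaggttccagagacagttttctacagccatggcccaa
Arr3: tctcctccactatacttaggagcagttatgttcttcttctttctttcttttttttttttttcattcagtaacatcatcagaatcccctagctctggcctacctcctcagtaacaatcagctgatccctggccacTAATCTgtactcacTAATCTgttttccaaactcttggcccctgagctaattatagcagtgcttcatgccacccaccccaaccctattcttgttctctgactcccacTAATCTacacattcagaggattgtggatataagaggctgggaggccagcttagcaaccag
Gnat2: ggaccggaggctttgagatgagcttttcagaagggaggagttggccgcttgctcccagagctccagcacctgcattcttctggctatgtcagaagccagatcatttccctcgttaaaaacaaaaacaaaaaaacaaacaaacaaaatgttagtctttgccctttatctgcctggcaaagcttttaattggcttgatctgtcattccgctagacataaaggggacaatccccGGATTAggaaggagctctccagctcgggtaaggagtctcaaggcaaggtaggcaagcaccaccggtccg
TAATCT began 49 bases before the start of Opn1sw, and 116, 102 and 10 bases before the start of Arr3. TAATCC lay on the opposite strand of Gnat2, beginning 19 bases before the start. Neither motif was in the windows of Opn1mw, Pde6h or Cnga3. Among 32851 mouse promoter windows of the same length, 7.06% held TAATCC, 8.19% held TAATCT and 14.4% held either. A match describes letters in the window and not binding of a factor.

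The opsins differed most between HD and WT eyes. Opn1sw (probe set 17465396) stood at 7.91, 7.17, 7.71 and 6.88 in the 4 WT arrays at 9 weeks, and at 3.22, 2.89, 3.74 and 3.24 in the 4 R6/2 arrays. Every R6/2 array lay below every WT array. The level fell by 4.14 on the log2 scale (SE 0.65, 95% confidence interval -5.52 to -2.77, limma adjusted p = 0.0664), which is 17.7-fold. The 6 months values were 7.49, 7.84 and 7.46 in WT replicates 1 to 3, 3.48 in WT replicate 4, and 2.91, 2.51 and 3.01 in R6/1. All R6/1 arrays were lower than all WT arrays, with replicate 4 next to R6/1. With the groups as labelled Opn1sw fell by 3.76 on the log2 scale (SE 0.70, adjusted p = 0.184), or 13.5-fold. Without WT replicate 4 it fell by 4.79 (SE 0.26, adjusted p = 4.64e-08), or 27.6-fold.

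Opn1mw (probe set 17535722), the other pigment, followed the same pattern. It stood at 6.39, 5.78, 6.43 and 5.67 in WT at 9 weeks and at 2.39, 2.01, 2.61 and 2.86 in R6/2, without overlap. The fall was 3.60 on the log2 scale (SE 0.66, adjusted p = 0.0664), or 12.1-fold. In the 6 months cohort it stood at 6.33, 6.71 and 5.25 in WT replicates 1 to 3, at 2.06 in WT replicate 4, and at 2.05, 2.05 and 2.33 in R6/1. WT replicate 4 lay inside the R6/1 range, so the groups as labelled overlapped, and the difference of -2.95 (SE 0.71) was not called (adjusted p = 0.423). Without that array Opn1mw fell by 3.96 on the log2 scale (SE 0.32, adjusted p = 5.17e-06). All 7 HD values of Opn1mw, and 1 of Opn1sw, lay below the median of all probe sets on the same array. The files give no background levels, so how much of the remaining signal was transcript was not tested.

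Arr3 (probe set 17536548), the arrestin that quenches both cone pigments, was the third gene of this pattern. Its values were 6.93, 6.63, 7.14 and 5.90 in WT at 9 weeks and 3.96, 4.17, 4.19 and 4.43 in R6/2. No R6/2 array reached the lowest WT array, and the level fell by 2.46 on the log2 scale (SE 0.44, adjusted p = 0.0664), or 5.51-fold. At 6 months Arr3 stood at 6.79, 7.22 and 6.85 in WT replicates 1 to 3, at 4.34 in WT replicate 4, and at 4.13, 3.92 and 3.87 in R6/1. The arrays of R6/1 were again below every WT array. The difference was -2.33 (SE 0.48, adjusted p = 0.225) as labelled, which was not called, and a fall of 2.98 (SE 0.25, adjusted p = 6.79e-06) without WT replicate 4.

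**Figure D1:**
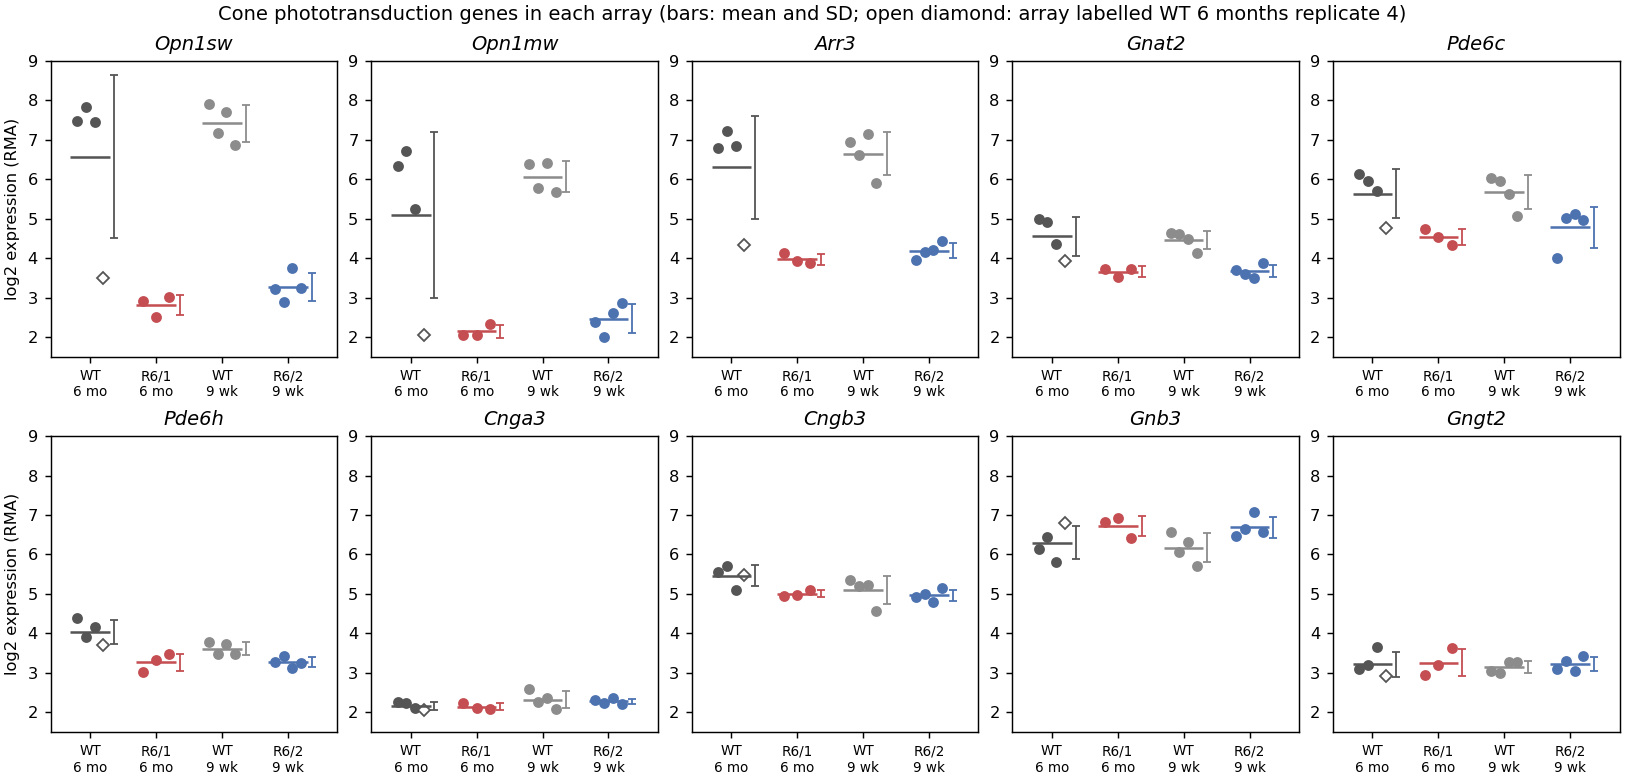
Log2 expression of each of the 10 cone phototransduction genes in each of the 15 arrays, by group. Points are arrays, horizontal lines are group means and error bars are SD. The open diamond is the array labelled WT 6 months replicate 4, which lies beside R6/1 in Opn1sw (3.48), Opn1mw (2.06) and Arr3 (4.34).

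The transducin subunits did not move together. Gnat2 (probe set 17401629) encodes the alpha subunit of cones, which carries the signal from opsin to the phosphodiesterase. It stood at 4.63, 4.61, 4.49 and 4.13 in WT at 9 weeks and at 3.69, 3.61, 3.50 and 3.87 in R6/2, and the groups did not overlap. The difference was -0.80 (SE 0.20), which was not called with all 15 arrays in the model (adjusted p = 0.287). With WT 6 months replicate 4 left out of the model, which changes the error estimate and not the R6/2 difference, Gnat2 was called (adjusted p = 0.0873). In the older mice it stood at 5.0, 4.91 and 4.36 in WT replicates 1 to 3, at 3.93 in WT replicate 4, and at 3.73, 3.51 and 3.73 in R6/1. R6/1 was below all WT arrays, with a difference of -0.89 as labelled (SE 0.22, adjusted p = 0.423, not called) and a fall of 1.10 without WT replicate 4 (SE 0.19, adjusted p = 0.0211).

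Gnb3 (probe set 17470917), the beta subunit of cone transducin, which ON bipolar cells also use, was not lower in either model. It stood at 6.58, 6.06, 6.32 and 5.71 in WT at 9 weeks and at 6.47, 6.64, 7.07 and 6.56 in R6/2, so that the lowest R6/2 array was inside the WT range. The difference was 0.52 (SE 0.22, unadjusted p = 0.0327, limma adjusted p = 0.450). At 6 months it stood at 6.14, 6.45 and 5.81 in WT replicates 1 to 3, at 6.80 in WT replicate 4, and at 6.82, 6.91 and 6.42 in R6/1. The difference was 0.42 (SE 0.24) as labelled and 0.59 (SE 0.24) without WT replicate 4, and neither was called. Gngt2 (probe set 17255466), the gamma subunit, ranged from 2.98 to 3.27 in WT and from 3.04 to 3.42 in R6/2, with a difference of 0.08 (95% confidence interval -0.29 to 0.45). At 6 months it ranged from 2.92 to 3.64 in WT and from 2.94 to 3.62 in R6/1, with a difference of 0.04 (-0.36 to 0.44). The sign of the latter turned without WT replicate 4 (-0.05, interval -0.47 to 0.37). The mean of Gngt2 over the 15 arrays was 3.20, little above the array medians of 2.78 to 2.95, which leaves little room for a fall. Whether a fall of Gngt2 could be seen at that level was not tested.

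The phosphodiesterase genes were lower in R6/1 when WT replicate 4 was left out. Pde6c (probe set 17359118) encodes the catalytic subunit of the cone enzyme. It stood at 6.13, 5.97 and 5.70 in WT replicates 1 to 3 at 6 months, at 4.76 in WT replicate 4, and at 4.75, 4.55 and 4.33 in R6/1. The groups as labelled were set apart only by the narrow gap between WT replicate 4 and the highest R6/1 array, and the difference was -1.10 (SE 0.32, adjusted p = 0.708, not called). Without that array Pde6c fell by 1.39 (SE 0.28, adjusted p = 0.0580). In R6/2 it stood at 4.0, 5.01, 5.13 and 4.98, against 6.03, 5.95, 5.62 and 5.08 in WT, and the groups overlapped through R6/2 replicate 3 and WT replicate 4. The difference was -0.89 (SE 0.30, adjusted p = 0.377, not called).

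Pde6h (probe set 17463842) encodes the inhibitory subunit that holds the cone enzyme in check. At 6 months it stood at 4.38, 3.90 and 4.15 in WT replicates 1 to 3, at 3.69 in WT replicate 4, and at 3.03, 3.31 and 3.46 in R6/1. R6/1 lay below all WT arrays, and the difference was -0.76 as labelled (SE 0.17, adjusted p = 0.359, not called), and a fall of 0.88 without WT replicate 4 (SE 0.17, adjusted p = 0.0473). At 9 weeks Pde6h stood at 3.77, 3.47, 3.73 and 3.47 in WT and at 3.27, 3.43, 3.11 and 3.25 in R6/2. The groups did not overlap, but by a small margin, and the difference of -0.35 (SE 0.16) was not called (adjusted p = 0.483).

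The channel genes showed small differences. Cngb3 (probe set 17412047), the beta subunit of the cyclic GMP gated channel of cones, ranged from 4.56 to 5.36 in WT and from 4.80 to 5.13 in R6/2, with a difference of -0.12 (95% confidence interval -0.49 to 0.24). In WT at 6 months it ranged from 5.09 to 5.72, and in R6/1 from 4.94 to 5.10, with a difference of -0.46 (SE 0.19, unadjusted p = 0.0266) that was not called by limma. Here WT replicate 4, at 5.48, was inside the range of the other WT arrays. Cnga3 (probe set 17211927), the alpha subunit, which carries the pore, ranged from 2.05 to 2.58 over all 15 arrays and was not tested. It lay below the median of all probe sets in every array, WT included, which leaves little room for a fall. Its difference was -0.04 in R6/2 (interval -0.27 to 0.19) and -0.03 in R6/1 (interval -0.27 to 0.22).

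**Figure D2:**
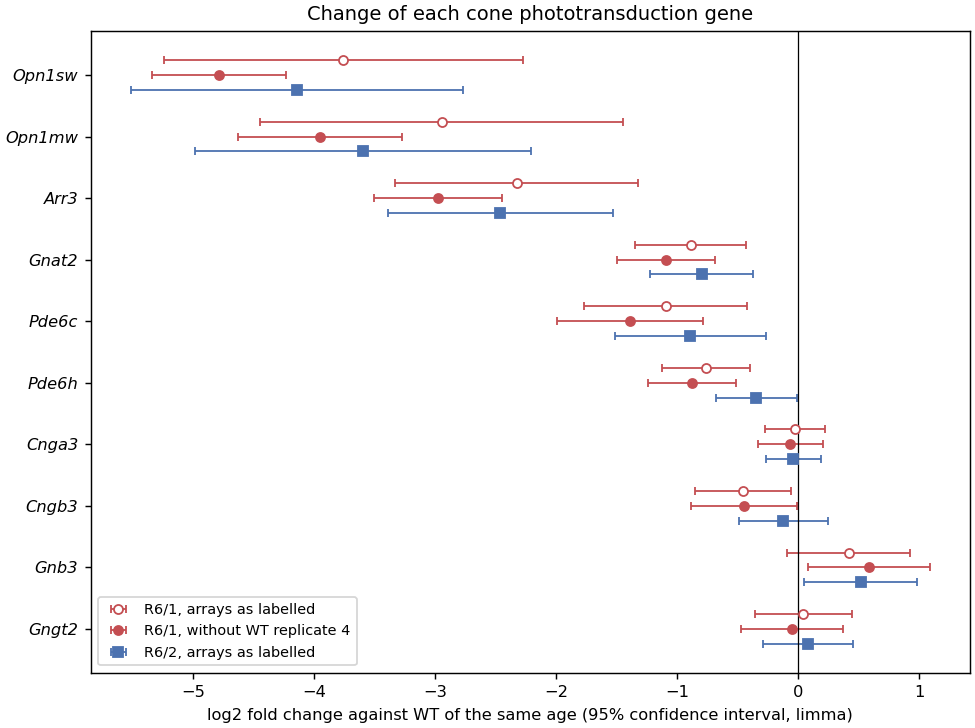
Log2 fold change of each cone gene against WT of the same age, with 95% confidence intervals from limma, for R6/1 as labelled (open circles), R6/1 without WT replicate 4 (filled circles) and R6/2 (squares). Opn1sw, Opn1mw and Arr3 lie farthest below 0, and Gnb3 is the gene whose 3 estimates all lie above 0 by more than 0.40.

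Counted over the pathway, 3 of the 9 cone genes tested were called in R6/2, all lower (Opn1sw, Opn1mw and Arr3), where 0.0992% of all genes tested were called lower and 0.0721% higher. The R6/2 calls also varied with the arrays used. Without R6/2 replicate 3 only Opn1sw was called (Opn1mw and Arr3 both at limma adjusted p = 0.215), without R6/2 replicate 2 Opn1mw was not, and without WT 9 weeks replicate 3 Gnat2 and Pde6c were added, which made 5. With WT 6 months replicate 4 left out of the model 4 were called, all lower, against backgrounds of 0.28% lower and 0.189% higher. In R6/1 as labelled 1 cone gene, Opn1sw, was called, lower, against 0.018% of genes called lower and 0.0361% called higher. That call was lost in 13 of the 15 models that each left out 1 array, and held without WT 6 months replicate 4 or WT 9 weeks replicate 4. Without WT replicate 4 the count was 6, all lower (Opn1sw, Opn1mw, Arr3, Gnat2, Pde6c and Pde6h), against 0.37% lower and 0.108% higher. In a model with the replicate number as a block the same 6 genes were called. WT replicate 4 has no partner of its number, so that the blocked difference at 6 months equals the one without it.

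By the arrays alone, R6/2 lay wholly below WT in 5 cone genes (Opn1sw, Opn1mw, Arr3, Gnat2 and Pde6h), and 2.06% of all genes tested did so, with 4.86% wholly above. R6/1 lay wholly below WT as labelled in 5 (Opn1sw, Arr3, Gnat2, Pde6c and Pde6h), against 1.9% of genes below and 1.15% above. Without WT replicate 4 Opn1mw was added, which made 6, against 3.35% below and 2.58% above. No cone gene lay wholly above WT in either model. The median log2 difference of the 10 cone genes was -0.57 in R6/2, -0.83 in R6/1 as labelled and -0.99 without WT replicate 4. The same medians over all genes tested were 0.03, 0.01 and 0.02. In a whole eye, fewer cones and less RNA per cone cannot be told apart.

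Some arrays stood apart in other tissue markers. WT replicate 4 at 9 weeks had the lowest WT value in 8 of the 10 cone genes and in all 9 rod genes measured, and its mean over 8 genes of the lacrimal and Harderian glands was 8.74, against 6.25, 7.88 and 4.80 in the other WT arrays and 4.16 to 6.1 in R6/2. With WT replicates 2 and 4, both high in gland genes, left out together, Opn1sw and Arr3 stayed called in R6/2 and Opn1mw did not (-3.94, limma adjusted p = 0.220), a choice made after the data had been seen. The R6/2 difference of Gnb3 was then 0.23, in place of 0.52 with all arrays. The 8 muscle genes, all measured, averaged 7.14 to 7.63 in WT and 5.31 to 6.66 in R6/2 at 9 weeks. At 6 months they averaged 7.32 to 7.88 in WT replicates 1 to 3, 5.71 in WT replicate 4 and 6.08 to 7.15 in R6/1. Of the gland genes none was called in either model as labelled, with 6 of 8 at an unadjusted limma p under 0.05 in R6/2 and 0 in R6/1, where 10.0% and 3.11% of all genes tested were. Fasn, a fatty acid synthase gene, was called lower in R6/2 without WT 6 months replicate 4 (-1.99, adjusted p = 0.167). Of the muscle genes none was called in R6/1 as labelled, with 3 of 8 at an unadjusted limma p under 0.05, beside 3.11% of all genes tested. Actn3, a fast fibre actinin, was called in R6/2 (-1.65, limma adjusted p = 0.0735), and without WT 6 months replicate 4 there were 4 of 8 called lower in R6/2 and 3 in R6/1, beside 0.28% and 0.37% of all genes tested. The part of muscle and gland content in the cone differences was not tested.

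**Figure D3:**
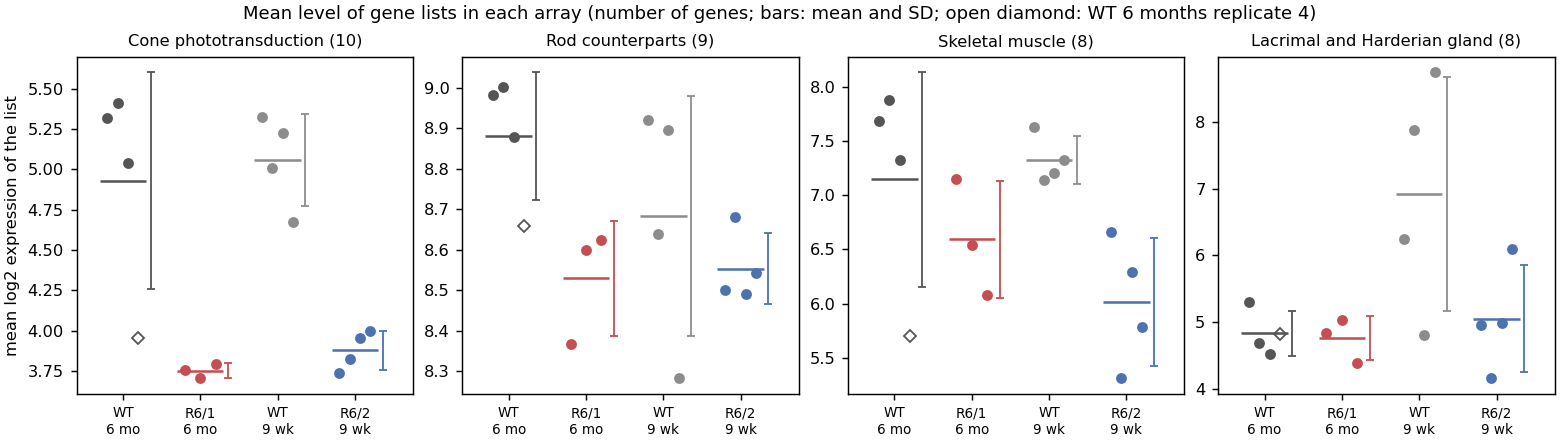
Mean log2 expression per array of the 10 cone genes, 9 rod counterparts, 8 skeletal muscle genes and 8 lacrimal and Harderian gland genes, by group, with group means and SD; the vertical scales differ between panels. The cone means of HD arrays lie between 3.70 and 4.0, below those of the WT arrays other than WT 6 months replicate 4 (4.67 to 5.41).

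The rod versions of the same proteins served as a comparison within each array. Of the rod counterparts 9 are described here. None of the 9 was called in R6/2 or, as labelled, in R6/1. At an unadjusted limma p under 0.05, none passed in R6/2, and Sag, Gnat1 and Cnga1 did in R6/1 as labelled, beside 10.0% and 3.11% of all genes tested. All 9 differences were below 0 in both models, from -0.37 to -0.05 in R6/2 and from -0.65 to -0.07 in R6/1 as labelled. Their medians were -0.07 and -0.33, and -0.40 in R6/1 without WT replicate 4. Without that array Sag, the rod arrestin, fell by 0.81 on the log2 scale (SE 0.18, adjusted p = 0.0781), and R6/1 lay wholly below WT in 8 of the 9 rod genes, as it did in 4 as labelled and R6/2 in 0. Over all genes tested those shares were 3.35%, 1.9% and 2.06%. WT 9 weeks replicate 4 was lowest of the WT arrays in all 9 rod genes, which lowers the WT mean and makes the R6/2 rod falls smaller. Sag stood at 9.23 in it, against 9.44 to 9.92 in the other WT arrays and 9.13 to 9.32 in R6/2. In Sag, Gnat1 and Cnga1 every R6/2 array lay below the other WT arrays, and in the remaining rod genes they overlapped. The mean of WT 9 weeks replicate 4 over the 9 rod genes was 8.28, against 8.64 to 8.92 in the other WT arrays and 8.49 to 8.68 in R6/2. The rod differences without that array were not computed.

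Cone and rod versions of a step were then set side by side as the cone change minus the rod change, over 8 pairs. An exact two-sided permutation test over arrays was used, with no adjustment. The rod gene was the brighter in every pair, with mean levels of 10.81 in Gnat1 and 4.11 in Gnat2, and of 6.54 in Cngb1 and 5.14 in Cngb3. Whether these levels affect the size of a log2 change was not tested. In R6/2 the smallest p that 4 against 4 arrays allow, 0.0286, was reached in 5 pairs. The arrestins differed most, with Arr3 changing by -2.09 relative to Sag. Pde6c changed by -0.83 relative to Pde6a, the rod catalytic subunit, and Gnat2 by -0.64 relative to Gnat1, the rod transducin alpha subunit. Pde6h changed by -0.29 relative to Pde6g, the rod inhibitory subunit. Gnb3 went the other way, by 0.58 relative to Gnb1, the beta subunit of rod transducin, which is made in many other cells too.

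The other pairs in R6/2 did not pass. Cngb3 and Cngb1 differed by -0.00064 (exact p = 1), Gngt2 and Gngt1 by 0.14 (exact p = 0.514) and Cnga3 and Cnga1 by 0.19 (exact p = 0.314). In R6/1 the same 5 pairs had the same signs as in R6/2. There the tests cannot pass 0.05, since the smallest p allowed is 0.0571 for the groups as labelled and 0.1 without WT replicate 4. Arr3 changed by -1.68 relative to Sag as labelled (exact p = 0.114) and by -2.17 without that array (exact p = 0.1). Cnga3 went the other way, by 0.56 relative to Cnga1, the rod channel alpha subunit, as labelled, without overlap of the groups (exact p = 0.0571), and by 0.65 without that array (exact p = 0.1). As labelled Cnga3 itself changed by -0.03 and Cnga1 by -0.59, so Cnga3 did not rise. Cnga3 lay below the array median in every array, WT included, which leaves little room for a fall.

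**Figure D4:**
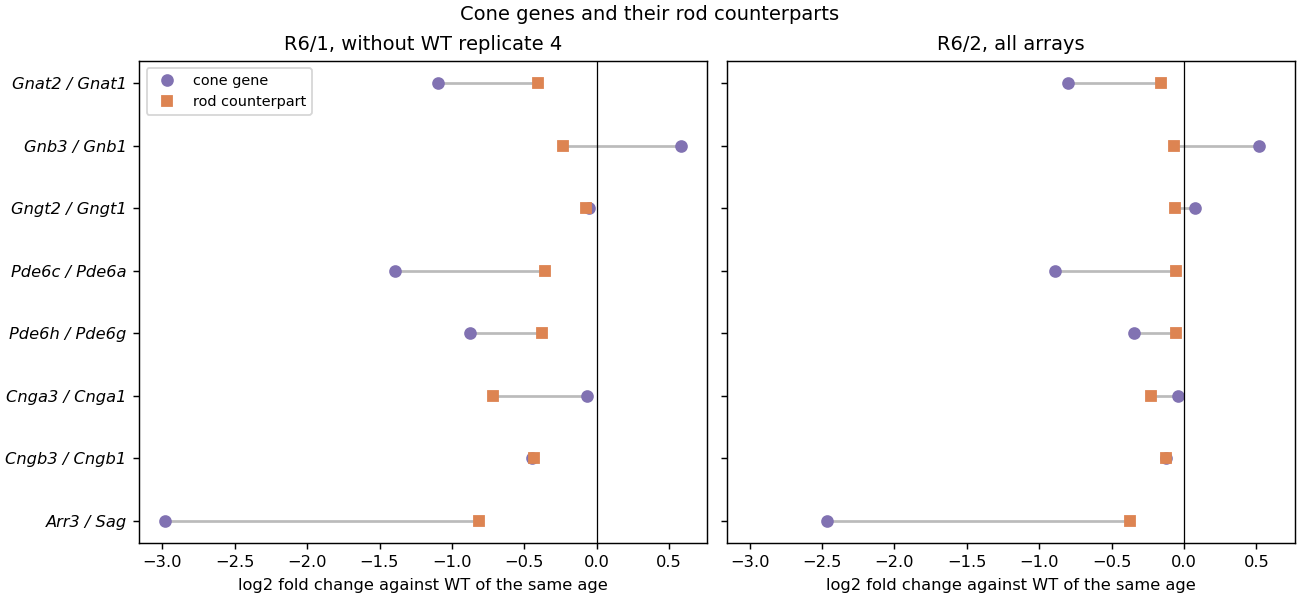
Log2 fold change against WT of the same age for 8 cone genes (circles) and their rod counterparts (squares), each pair joined by a line, in R6/1 without WT replicate 4 (left) and in R6/2 (right). Arr3 lies farthest to the left of its rod counterpart Sag in both panels, and Gnb3 lies to the right of Gnb1.

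Genes that cones and rods share in the light response, or that mark cones outside this pathway, were seldom called. Of 12 genes of the shared photoresponse, among them guanylate cyclases and their activators, 10 were tested, and none was called in R6/2 or in R6/1 as labelled. At an unadjusted limma p under 0.05 there was 1 in R6/2, Slc24a2, with a difference above 0 (0.48). In R6/1 as labelled there were 4, all with differences below 0. The shares of all genes tested at that threshold were 10.0% in R6/2 and 3.11% in R6/1, so that 1 of 10 was at the background, and the same shares apply to the counts that follow. Over the 12 genes the median differences were -0.15 in R6/2 and -0.39 in R6/1. Grk1, the opsin kinase of rods and cones, differed by -0.68 in R6/1 as labelled (SE 0.18, adjusted p = 0.639), and fell by 0.81 without WT replicate 4 (SE 0.18, adjusted p = 0.0957). Among 6 further cone genes 4 were tested and none was called, with 1 at an unadjusted limma p under 0.05 in each model. These were Thrb, a thyroid hormone receptor gene with a part in medium-wave cone fate, at -0.44 in R6/2, and Ccdc136 at -0.46 in R6/1 as labelled. At 9 weeks Thrb stood at 6.34 and 6.63 in WT replicates 2 and 4, the arrays high in gland genes. It stood at 6.03 and 5.89 in WT replicates 1 and 3, and at 5.63 to 6.00 in R6/2. Which cells the Thrb signal came from was not tested.

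Of 5 photoreceptor transcription factors measured, 4 were tested and none was called, with 2 at an unadjusted limma p under 0.05 in each model. These were Otx2 and Neurod1, with differences above 0, in R6/2, and Crx and Nrl, with differences below 0, in R6/1 as labelled. Crx, which drives many photoreceptor genes, differed by 0.08 in R6/2 (SE 0.14) and by -0.36 in R6/1 as labelled (SE 0.15). Otx2, which acts upstream of Crx, differed by 0.52 in R6/2 (SE 0.21). In Otx2 WT 9 weeks replicate 4 stood at 5.29, with 6.11 to 6.50 in the other WT arrays and 6.49 to 6.63 in R6/2. Among genes of neighbouring cells, none of 4 bipolar, 4 retinal pigment epithelium, 2 Müller glia and 7 lens genes tested was called in either model as labelled, with respectively 0, 0, 1 and 2 at an unadjusted limma p under 0.05 in R6/2 and 1, 3, 0 and 0 in R6/1, beside 10.0% and 3.11% of all genes tested. In R6/1 as labelled the 3 pigment epithelium genes were lower, namely Lrat (-0.96), Rgr (-0.70) and Rpe65 (-0.46). Without WT replicate 4 Rgr, an opsin of the pigment epithelium and Müller glia, fell by 0.98 in R6/1 (adjusted p = 0.0960). The 4 bipolar genes measured had median differences of -0.11 in R6/2 and -0.38 in R6/1, beside the differences of 0.52 and 0.42 in Gnb3.

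The changes in the models were compared directly, by subtracting the R6/2 difference from that in R6/1. None of the 9 cone genes and 0% of all genes were called lower, and likewise 0% higher, and leaving out WT 6 months replicate 4 did not change this. At an unadjusted limma p under 0.05 there were 302 genes, none of them a cone gene. Without that array there were 266, among them 1 cone gene, Pde6h, at -0.53 (95% confidence interval -1.01 to -0.05). The intervals were wide. For Opn1sw the difference was 0.38 (95% confidence interval -1.64 to 2.41) as labelled and -0.64 (-1.38 to 0.09) without the array. For Arr3 it was 0.13 (-1.24 to 1.51) and -0.52 (-1.22 to 0.18). Differences of these sizes between the models could not be told from 0.

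WT mice at 6 months differed from WT mice at 9 weeks in many genes, with 11.5% of those tested called lower and 7.74% higher, or 8.67% and 4.04% without WT 6 months replicate 4. Among the cone genes Pde6h alone was called, higher at 6 months by 0.42 (SE 0.16, limma adjusted p = 0.140), or by 0.53 without that array (adjusted p = 0.107). A count of 1 in 9 cone genes is near that background. The call was lost when WT 9 weeks replicate 2 or replicate 4, or WT 6 months replicate 1, was left out. Opn1sw differed by -0.85 (SE 0.65) as labelled and by 0.18 (SE 0.24) without the array, so that its sign rested on 1 array. Age and cohort cannot be told apart here.

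Within groups the cone genes differed in how far they varied together from array to array. After group means were removed, Pearson's r over the 15 arrays was 0.96 between Opn1sw and Opn1mw, 0.95 between Opn1sw and Arr3, and 0.93 between Opn1mw and Arr3. It was 0.75 between Opn1sw and Gnat2 and 0.69 between Opn1sw and Pde6c. Gnb3 stood apart, at -0.31 with Opn1sw. These values are descriptive, and WT replicate 4 at 6 months, which is far from its group mean, weighs in all of them. Among genes outside the 10, those most like the mean standardized level of the cone genes over the 15 arrays were Sag (r = 0.960), Dpf3 (r = 0.958), Rabgef1 (r = 0.942), Agpat3 (r = 0.933) and Nxnl1 (r = 0.924), which encodes a thioredoxin-like factor of photoreceptors. After group means were removed they were Dpf3 (0.927), Agpat3 (0.916), Sag (0.905), Esyt3 (0.895) and Grk1 (0.886). The arrays share tissue content, so that any gene of the same tissue can score high.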

How the data were processed

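The measurements came from 15 arrays (Affymetrix Mouse Gene 2.1 ST), each of a whole eye sample. The authors deposited log2 values made with RMA in the affy library, for 41345 probe sets. For labelling, the methods name a WT Plus kit and the array labels an IVT Express kit. Precision is limited by the number of arrays, and the files give no background levels.

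Groups follow the labels. Of the probe sets, 23521 carried 1 symbol in the platform annotation, 1820 several and 16004 none; those with 1 were kept, and the highest mean stood for a gene. The upper 50% of 22180 genes by interquartile range were tested with limma 3.58.1 in R 4.3.3 (4 group means, empirical Bayes), and pairs with exact permutation tests in scipy 1.17.1. The method was tested on simulated data. Named genes are the 10 cone genes, their rod counterparts, called members of the other lists, genes most like the cone mean, and Tmem26 and Myh4. The names Thrb, Ccdc136, Crx, Nrl, Neurod1, Otx2, Slc24a2, Lrat and Rpe65 were added with their values known. The genes and lists were chosen with earlier results of these data known.

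Samples of the same replicate number deviated together at 6 months (r = 0.41, 0.34 and 0.75 in replicates 1, 2 and 3) but not at 9 weeks (0.11, -0.29, -0.22 and 0.26). With different numbers at 6 months r was 0.31 (WT 1 with R6/1 2) and 0.25 (WT 2 with R6/1 1). For WT 4 it was 0.22 and 0.29 with R6/1 1 and 2. It was -0.55 to -0.36 where only 1 of the samples was replicate 3. Replicate 3 alone stood clear of these values. WT 6 months replicate 3 and R6/1 replicate 3 also had the lowest interquartile ranges (2.17 and 2.26) and the highest medians (2.95 and 2.94) of the 15 arrays. The part of this in their correlation was not tested. The labels name no pairing, so the block at 6 months rests on the correlations of samples with the same number. Promoter windows came from RefSeq. Protein identities of cone and rod pairs were not computed. Alternatives covered the filter, threshold, arrays in the model, probe sets, empirical Bayes settings, further normalization, array weights, dim genes, an array covariate, the block and each array left out.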

Additional observations from a re-analysis of the deposited data

Results flagged for a closer look

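In 57 groups of 4 arrays, over 10 cone genes and 9 rod counterparts, 5 held an array set far from the other 3, and chance gives about 1 in 20. In 4 of them it was the array labelled WT 6 months replicate 4, which stood below the other WT arrays of that age, at 3.48 in Opn1sw, 4.34 in Arr3, 9.24 in Sag and 10.76 in Gnb1. The remaining one was R6/2 replicate 1 at 9 weeks, where Pde6c stood at 4.0 against 4.98 to 5.13 in the other R6/2 arrays. Without R6/2 replicate 1 the R6/2 difference of Pde6c was -0.63 in place of -0.89, and it was called in neither case.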

How the results depend on the processing

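The count of cone genes called in R6/1 was 1 with the groups as labelled. It was 0 with no variance filter, with an adjusted p under 0.05, with each age fitted on its own, with trend and robust empirical Bayes and with quantile normalization. It was 2 with arrays centred on their medians and with genes under 4 on the log2 scale left out, 3 with the array's interquartile range as a covariate, and 6 with array weights and with the replicate block. Leaving out each array in turn gave 0 to 6. Combinations that left out WT 6 months replicate 4 were chosen after seeing the data. They gave 6 with no filter, with the covariate and with the block, 5 with each age fitted on its own and with an adjusted p under 0.05, and 4, 5 and 6 with WT replicate 1, 2 or 3 also left out, or 5, 6 and 5 with R6/1 replicate 1, 2 or 3. The count in R6/2 was 3. It was 0 with an adjusted p under 0.05, 1 with trend and robust empirical Bayes, 6 with array weights (5 lower and Gnb3 higher), and 1 to 5 over single arrays left out. At 9 weeks the numbers do not pair the samples, and the replicate block gave 6, namely 5 lower and Gnb3 higher. With WT 6 months replicate 4 left out as well, the block and the covariate each gave 6, again 5 lower and Gnb3 higher. The count between ages in WT was 1, and became 0 with an adjusted p under 0.05, 2 with quantile normalization, centring, array weights or the covariate, 3 with the block (Opn1sw and Opn1mw lower, Pde6h higher), and 0 to 2 over single arrays left out. The count for the difference between models was 0 in all alternatives run. The cause of these changes was not tested.

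Signs turned in few results. Gngt2 in R6/1 became -0.053 with the block and, without WT 6 months replicate 4, with no filter, each age alone, the block or the stricter threshold. It became -0.040 with the covariate and without that array, -0.16 and -0.11 with WT replicate 1 or 2 also left out, and -0.023 and -0.24 with R6/1 replicate 2 or 3 left out instead, and over single arrays it ranged from -0.14 to 0.20. The difference between models became -0.64 in Opn1sw, -0.36 in Opn1mw, -0.52 in Arr3 and 0.069 in Gnb3 with the block. Over single arrays left out it ranged from -0.64 to 0.81 in Opn1sw, -0.36 to 1.20 in Opn1mw, -0.52 to 0.44 in Arr3, -0.30 to 0.058 in Gnat2, -0.26 to 0.069 in Gnb3 and -0.22 to 0.12 in Gngt2. Between ages, Pde6c became 0.041 with quantile normalization and 0.0022 with centring, and Gngt2 -0.034 with the covariate. The ranges between ages over single arrays were -1.27 to 0.18 in Opn1sw, -1.52 to 0.029 in Opn1mw, -0.66 to 0.30 in Arr3, -0.068 to 0.29 in Gnat2, -0.23 to 0.26 in Pde6c, -0.036 to 0.30 in Gnb3 and -0.075 to 0.17 in Gngt2. In R6/1 and R6/2 the differences of Opn1sw, Opn1mw, Arr3, Gnat2, Pde6c, Pde6h and Cngb3 stayed below 0, and those of Gnb3 above 0, in all alternatives run that gave a value. Over the 8 pairs, the cone change minus the rod change had a median of -0.27 for R6/1 and of -0.14 for R6/2. In the alternatives run these medians moved by less than the pooled SD, 0.41 for R6/1 and 0.26 for R6/2. Each SD is larger than its median, so this criterion cannot show that the sign held. Where the files give no background level, the size of the opsin differences is limited at the dim end.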
